A study of Drosophila melanogaster with 6 samples.

Results

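The UDP-glycosyltransferase (UGT) genes of Drosophila melanogaster were examined in the proboscis, the feeding organ that carries many of the fly's taste bristles. A gene was a member if its symbol in the platform annotation, updated through its Entrez identifier, began with Ugt and a digit. This gave 35 genes of the 11982 genes with a single-gene probe set, which are also all 35 genes of that name in the RefSeq gene table. Each had exactly 1 single-gene probe set, so no choice between probe sets was needed. Males homozygous for poxn70, an allele of Pox neuro, were set against males heterozygous for the same allele. Flies of both genotypes therefore carried poxn70, and no group without the allele was compared. Pox neuro (Poxn) encodes a transcription factor without which taste bristles develop as touch-sensitive ones. Males were 8 to 18 days past eclosion, 164 to 280 proboscises were pooled for each array, and each genotype had 3 biological replicates with 1 array each.

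UDP-glycosyltransferases are membrane-bound enzymes of the endoplasmic reticulum that join a sugar, in insects mostly glucose from UDP-glucose, to small fat-soluble molecules. The conjugate is more soluble in water and easier to excrete, and the enzymes are known for handling plant toxins, insecticides, pigments and hormones. In insect antennae they have also been studied as enzymes that may clear odorants around sensory neurons. They often act on the products of cytochrome P450 enzymes, and they share the task of conjugation with glutathione S-transferases and sulfotransferases.

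All levels are log2 GCRMA values, in which 1 unit is a doubling of the signal, and a value under 3 was treated as background. Each probe set binds its own transcript with its own efficiency, so levels of different genes are given as signals and not ranked as amounts of RNA. Differences are homozygous minus heterozygous, tested with limma over all probe sets, and a call needs a Benjamini-Hochberg adjusted p under 0.05. The 95% intervals given are for single genes and are not adjusted for the number of tests, so an interval can lie clear of 0 without a call. The probe set of Poxn itself gave no check of the labels, since its 6 values lay under the limit (2.46 ± 0.16 in homozygotes and 2.34 ± 0.04 in heterozygotes, SD, n = 3 each). Taste neuron markers stood apart by genotype. The summed linear signal of 10 such genes was 158 to 326 in homozygotes and 2496 to 3891 in heterozygotes. Of the 10, 4 were called lower and 0 higher, against 0.442% and 0.0751% of all genes. With replicate number as a block in the fit, 0 of these 10 were called (smallest limma adjusted p = 0.201). The arrays numbered 1 stood apart from numbers 2 and 3. Deviations from the genotype means in homozygous replicate 1 correlated over probe sets at 0.372 with those in heterozygous replicate 1, and at -0.349 and -0.169 with those in heterozygous replicates 2 and 3. In dissected tissue, fewer cells of a type and less RNA per cell cannot be told apart.

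Less than the full family was read in the proboscis. Of the 35 genes, 15 lay above the limit on all 6 arrays, 18 lay under it on all 6, and 2 were under it on all arrays but 1. Over all genes 60.5% were above on every array and 33.8% under on every array, against 42.9% and 51.4% of the UGT genes. This filter asked the same of both genotypes, and the 15 genes are not the whole family.

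The number in a UGT symbol marks its sequence family, and the families were read unevenly. All 4 Ugt36 genes were above the limit on every array. The Ugt35 family had 3 of 6 genes above it, the Ugt49 family 2 of 3, and the Ugt302 family 1 of 3. The Ugt37 family, the largest with 8 genes, had 1 gene above it on every array, which was Ugt37D1. None of the 4 Ugt303 genes was above it on every array. Ugt50B3, Ugt301D1, Ugt316A1 and Ugt317A1, each the only gene of its family here, were all above it.

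The 18 genes at background were Ugt35D1, Ugt35E1, Ugt35E2, Ugt37A1, Ugt37A2, Ugt37A3, Ugt37C1, Ugt37C2, Ugt37E1, Ugt49B2, Ugt302E1, Ugt302K1, Ugt303B1, Ugt303B2, Ugt303B3, Ugt304A1, Ugt305A1 and Ugt307A1. Their values ran from 2.10 to 2.89, and no difference between genotypes exceeded 0.078 in size. Ugt37B1 and Ugt303A1 crossed the limit on 1 array. Ugt37B1 was read at 3.21, 2.32 and 2.32 in homozygotes against 2.31, 2.30 and 2.31 in heterozygotes. Ugt303A1 was read at 3.33, 2.47 and 2.47 in homozygotes against 2.59, 2.45 and 2.46 in heterozygotes. In both genes the 1 value above the limit came from homozygous replicate 1, and no fold is given.

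**Figure D1:**
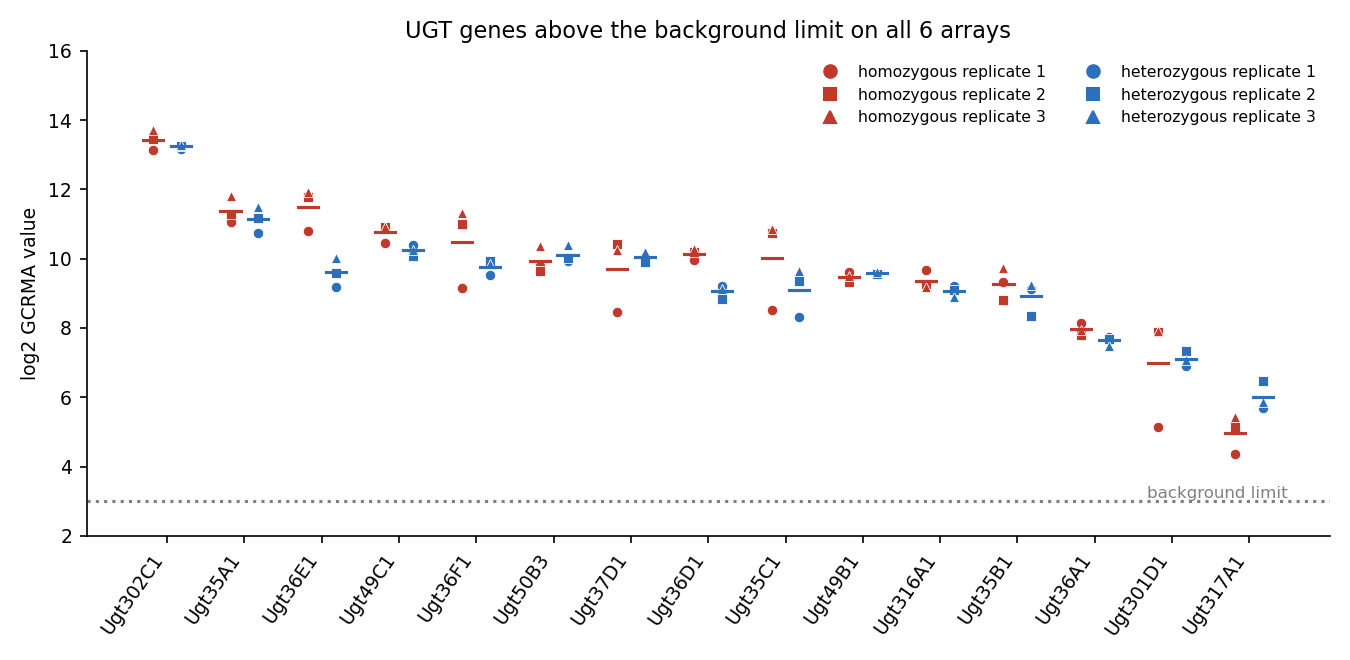
Log2 GCRMA values of the 15 UGT genes above the background limit of 3 (dotted) on all 6 arrays, with homozygous arrays (red) left of heterozygous arrays (blue), marker shapes for replicates and bars for group means. The groups stand apart in Ugt36E1, Ugt36D1 and Ugt317A1, and homozygous replicate 1 lies far below the other homozygous arrays in Ugt301D1, Ugt37D1, Ugt36F1 and Ugt35C1.

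No UGT gene passed the test over all probe sets. Limma called 0 of 35 lower and 0 of 35 higher, where 0.442% of all genes were called lower and 0.0751% higher. With the replicate block fitted over all probe sets, 0 of all genes were called in either direction (smallest limma adjusted p = 0.131, and 0.271 among the UGT genes). At an unadjusted p under 0.05, 1 UGT gene was lower (2.86%) and 5 were higher (14.3%), against 3.86% and 4.84% of all genes. Among these higher genes, Ugt302K1 and Ugt35E2 lay at background and carry no fold. Among the 15 genes above the limit, 1 was lower and 3 were higher at that unadjusted level, against 5.2% and 6.74% of the 7245 genes above it on all arrays. Groups did not overlap in 1 lower and 4 higher of these 15 genes, against 8.02% lower and 13.1% higher of the same 7245.

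The largest difference was in Ugt36E1 (CG17322), a gene known from olfactory sensory neurons of the antenna. Its values were 10.80, 11.77 and 11.91 in homozygotes against 9.18, 9.60 and 10.02 in heterozygotes. Every homozygous array lay above every heterozygous one. The difference was 1.89 (95% interval 0.94 to 2.85), a ratio of 3.72, and it did not pass the test (limma adjusted p = 0.245). Over the 6 fits that left out 1 array it ran from 1.69 to 2.24 (adjusted p = 0.0810 to 0.724). Its probe set carries the suffix s_at, the maker's mark for a set that can bind more than 1 transcript, so part of its signal may come from a related transcript.

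Ugt36D1 (CG17323), its direct neighbour on arm 2L, had the smallest p of the family. It was read at 9.96, 10.18 and 10.27 in homozygotes against 9.22, 8.83 and 9.13 in heterozygotes. The groups were again fully separate, with little spread in either. The difference was 1.08 (95% interval 0.70 to 1.46), a ratio of 2.11, with a limma adjusted p of 0.0983. Over the 6 fits that left out 1 array it ran from 0.96 to 1.17 (adjusted p = 0.0855 to 0.380).

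Ugt36F1 (CG17324) is the third gene of this stretch, next to Ugt36D1. Its values were 9.16, 10.99 and 11.30 in homozygotes against 9.52, 9.95 and 9.86 in heterozygotes. Homozygous replicate 1 lay below all heterozygous arrays and the other 2 homozygous arrays above them, so the groups overlapped. The difference was 0.71 (95% interval -0.81 to 2.23, limma adjusted p = 0.611), and 0.30 to 1.37 over the 6 fits that left out 1 array (adjusted p = 0.0976 to 0.856), highest without homozygous replicate 1 and lowest without homozygous replicate 3. The fourth gene of the family, Ugt36A1 (CG2788), lies elsewhere on arm 2L and was first described as Dorothy, expressed in pericardial cells and lymph gland. It was read at 8.15, 7.79 and 7.94 in homozygotes against 7.75, 7.69 and 7.48 in heterozygotes. Its groups did not overlap, but the gap between them was small beside the spread within them, and the difference of 0.32 (95% interval -0.076 to 0.71) did not pass the test (adjusted p = 0.611). All 4 Ugt36 genes thus had higher homozygous means, and none was called.

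Ugt317A1 (CG4414) was the 1 gene of the 15 with fully separate and lower homozygous values. It stood at 4.35, 5.13 and 5.44 in homozygotes against 5.69, 6.48 and 5.87 in heterozygotes. The highest homozygous and lowest heterozygous values were close to each other. The difference was -1.04 (95% interval -2.05 to -0.030), not called (limma adjusted p = 0.611), and -1.27 to -0.73 over the 6 fits that left out 1 array (adjusted p = 0.359 to 0.852). Ugt49C1 (CG15661) differed the other way, with 10.46, 10.91 and 10.92 in homozygotes against 10.40, 10.06 and 10.25 in heterozygotes. Its groups were separate by a narrow margin, with a difference of 0.53 (95% interval 0.090 to 0.96, adjusted p = 0.601). Its neighbour Ugt49B1 (CG4302) was nearly level, at 9.60, 9.34 and 9.49 in homozygotes against 9.57, 9.55 and 9.61 in heterozygotes. Its interval was the narrowest of the 15, from -0.36 to 0.16 around -0.10.

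**Figure D2:**
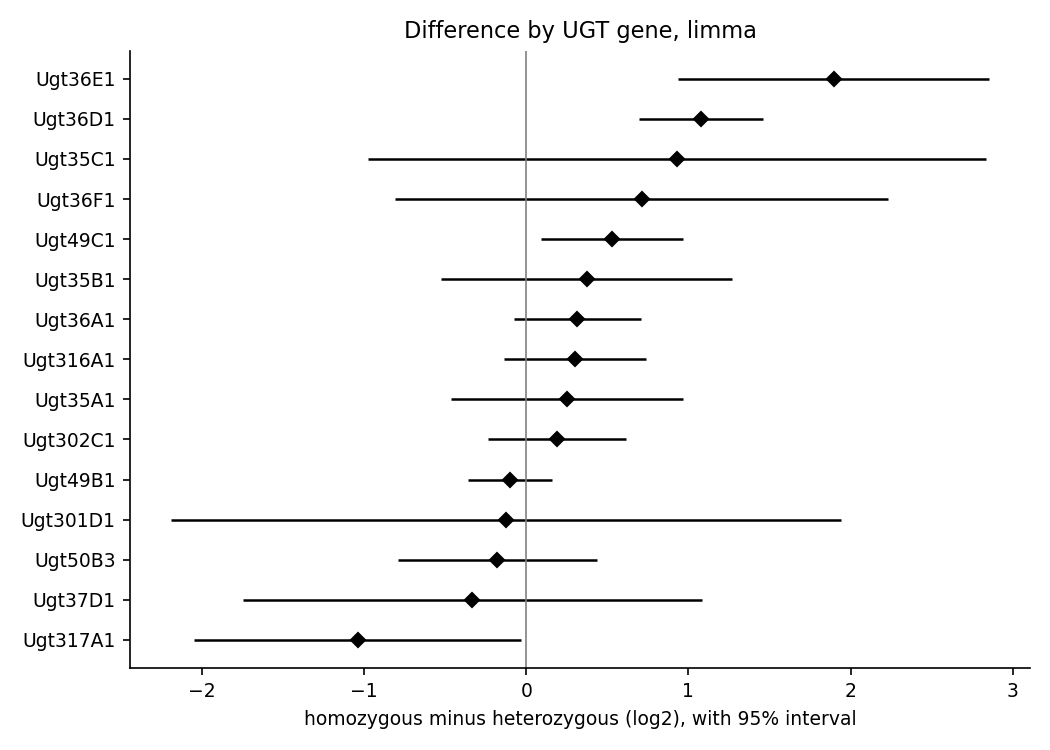
Difference between genotypes (homozygous minus heterozygous, log2) for the 15 UGT genes above the limit, as the limma estimate (diamond) with its unadjusted 95% interval (line). Ugt36E1 stands at 1.89 and Ugt317A1 at -1.04, and the intervals of 11 genes hold 0.

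The Ugt35 genes include 2 with a known setting in sensory tissue or toxin resistance. Ugt35C1 (CG6633, formerly Ugt86Dd) is linked to differences in nicotine resistance between fly strains. It was read at 8.52, 10.73 and 10.84 in homozygotes against 8.32, 9.35 and 9.64 in heterozygotes. The arrays numbered 1 were the lowest of both genotypes, and the groups overlapped. The difference was 0.93 (95% interval -0.97 to 2.83, limma adjusted p = 0.611), and 0.52 to 1.69 over the 6 fits that left out 1 array (adjusted p = 0.307 to 0.869), highest without homozygous replicate 1 and lowest without homozygous replicate 3.

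Ugt35B1 (CG6649) is known from the antenna, where it was found in olfactory sensilla. Its values were 9.32, 8.80 and 9.73 in homozygotes against 9.14, 8.34 and 9.25 in heterozygotes. In both genotypes replicate 2 was lowest and replicate 3 highest, and the groups overlapped (difference 0.37, 95% interval -0.52 to 1.27). Ugt35A1 (CG6644), the next gene on arm 3R, was read at 11.04, 11.30 and 11.82 in homozygotes against 10.75, 11.18 and 11.48 in heterozygotes. Here too the order of the replicates was the same in both genotypes, and the difference was 0.25 (95% interval -0.46 to 0.96).

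Ugt302C1 (CG18578) gave the strongest signal of any UGT probe set, with 13.13, 13.46 and 13.70 in homozygotes against 13.18, 13.26 and 13.28 in heterozygotes. The groups overlapped, and the difference was 0.19 (95% interval -0.24 to 0.62). Ugt316A1 (CG3797) was read at 9.66, 9.27 and 9.17 in homozygotes against 9.21, 9.09 and 8.89 in heterozygotes. Only homozygous replicate 3 reached into the heterozygous range, and the difference was 0.30 (95% interval -0.13 to 0.74, limma adjusted p = 0.611). Ugt50B3 (CG30438) belongs to a UGT family that most insects keep as a single gene, and its probe set is also of the s_at kind. It stood at 9.79, 9.64 and 10.37 in homozygotes against 9.92, 10.01 and 10.39 in heterozygotes. These groups overlapped, with a difference of -0.18 (95% interval -0.79 to 0.44).

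In 2 genes the sign of the difference rested on 1 array. Ugt301D1 (CG10178) was read at 5.15, 7.89 and 7.91 in homozygotes against 6.91, 7.33 and 7.08 in heterozygotes. Homozygous replicate 1 was the lowest of the 6 arrays and the other 2 homozygous arrays were the highest. The difference was -0.12 (95% interval -2.19 to 1.94), and -0.59 to 0.79 over the 6 fits that left out 1 array (limma adjusted p = 0.219 to 0.996), positive only without homozygous replicate 1. Ugt37D1 (CG17932), with an s_at probe set, was read at 8.46, 10.43 and 10.24 in homozygotes against 10.05, 9.89 and 10.18 in heterozygotes. Its difference was -0.33 (95% interval -1.75 to 1.08), and -0.69 to 0.29 over the same 6 fits (adjusted p = 0.359 to 0.881), again positive only without homozygous replicate 1.

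The same array was the lowest homozygous one in 10 of the 15 genes, or 66.7%, against 39.1% of the 7245 genes above the limit. Heterozygous replicate 1 was the lowest of its genotype in 8 of the 15, or 53.3%, against 42.4%. Homozygous replicate 3 was the highest homozygous array in 11 of the 15, or 73.3%, against 29.7%. The SD over 3 arrays was larger in homozygotes than in heterozygotes in 13 of the 15 genes. Its median was 0.39 in homozygotes and 0.21 in heterozygotes, close to the 0.36 and 0.22 found over all genes above the limit. It reached 1.58 for Ugt301D1 in homozygotes, and 0.69 for Ugt35C1 in heterozygotes.

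Within same-numbered arrays the family median also differed by number. The labels do not state a pairing by number, and the correlations between arrays did not tell numbers 2 and 3 apart. Over the 15 genes the median difference was 0.065 for number 1, 0.46 for number 2 and 0.46 for number 3, against 0.072, 0.0080 and 0.090 over the 7245 genes. With all arrays it was 0.30 over the 15 and 0.046 over the 7245. Over the full 35 genes it was 0.037, against 0.0047 over all genes, since most of the family lay at background. Means were higher in homozygotes for 10 of the 15 genes (66.7%), against 55.1% of the genes above the limit.

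**Figure D3:**
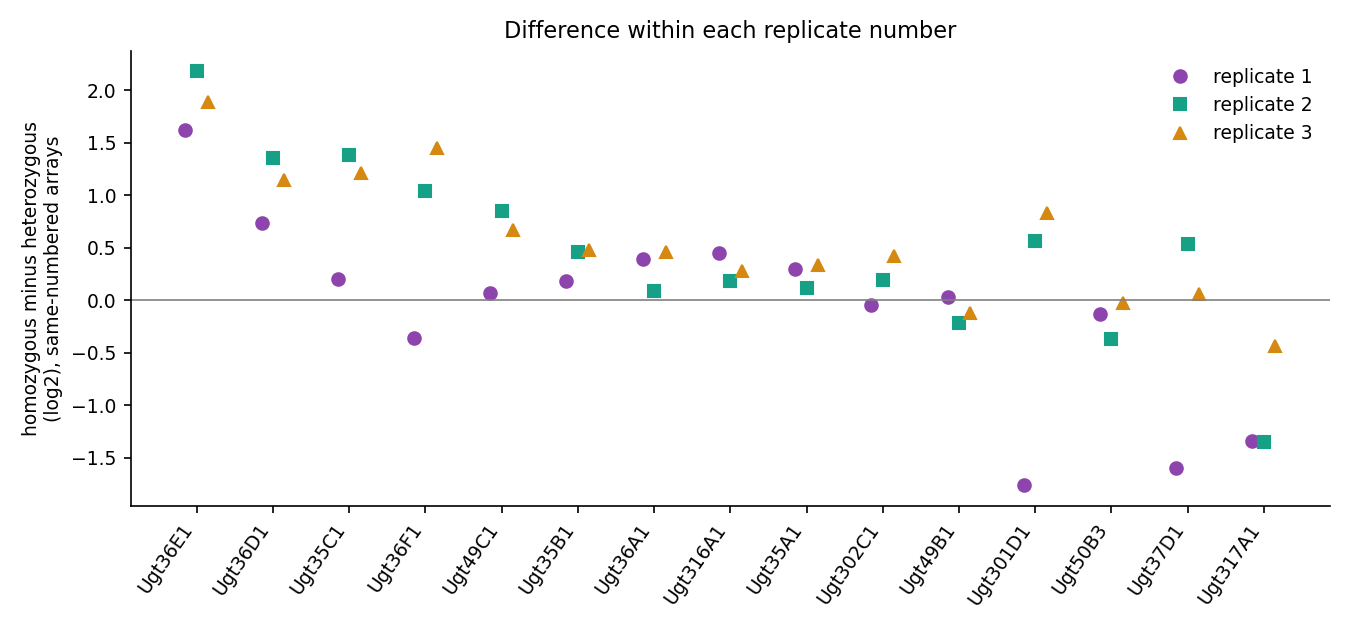
Difference between the homozygous and the heterozygous array of the same replicate number (log2) for the 15 UGT genes above the limit, ordered by their difference over all arrays. All 3 points lie above 0 in 8 genes (53.3%), Ugt36E1 and Ugt36D1 among them, and below 0 in Ugt317A1 and Ugt50B3 (13.3%). Over the 7245 genes above the limit these shares were 25.9% and 16.7%. Number 1 (circles) lies on the other side of 0 from numbers 2 and 3 in 5 genes, by the widest margins in Ugt301D1, Ugt37D1 and Ugt36F1. For these 5 no share over all genes was computed.

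Most UGT genes lie beside other UGT genes, and neighbours were read unevenly. With runs defined as UGT genes at most 3 places apart in the order of protein-coding genes, 23 of the 35 fell into 6 runs. The longest, on arm 3R, held 10 genes with 3 other genes between them. Of these 10, Ugt35C1, Ugt302C1, Ugt35B1 and Ugt35A1 were above the limit on all arrays, 5 were under it on all, and Ugt303A1 was partly under it. Ugt302C1, with the strongest signal of the family, stood directly beside Ugt302E1, whose values ran from 2.36 to 2.37. On arm 2L, Ugt37C2, Ugt37E1 and Ugt37D1 adjoin each other, and only Ugt37D1 was above the limit. The run of Ugt37A2 and Ugt37A3 and that of Ugt303B3, Ugt303B1 and Ugt303B2, both on arm 3R, lay wholly at background.

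The Ugt36F1, Ugt36D1 and Ugt36E1 stretch on arm 2L and the Ugt49B1 and Ugt49C1 pair on arm 2R were the runs read throughout. Around the Ugt36 stretch, the 3 nearest genes on each side gave 2 with a probe set of their own. These were ScpX and CG10600, with differences of -0.25 and -0.59 (limma adjusted p = 0.611 and 0.660), and their groups overlapped. They were named for their place beside the run and not by size of change. None of the 31 measured genes between or beside the 6 runs was called. The groups did not overlap in 3 that were higher and 2 that were lower in homozygotes, against 16.3% higher and 5.83% lower of all genes. Of these 5 genes without overlap, 3 are named after their values were seen. CG31345, near the Ugt37A2 and Ugt37A3 run with beat-Vc in between, averaged 4.94 in homozygotes and 7.81 in heterozygotes. Its difference was -2.87 (limma adjusted p = 0.192). ASPP, beside Ugt49C1, averaged 7.70 in homozygotes and 8.73 in heterozygotes (difference -1.03, adjusted p = 0.611). The gene mdy, near Ugt37D1, averaged 10.68 in homozygotes and 9.63 in heterozygotes (difference 1.05, adjusted p = 0.611).

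**Figure D4:**
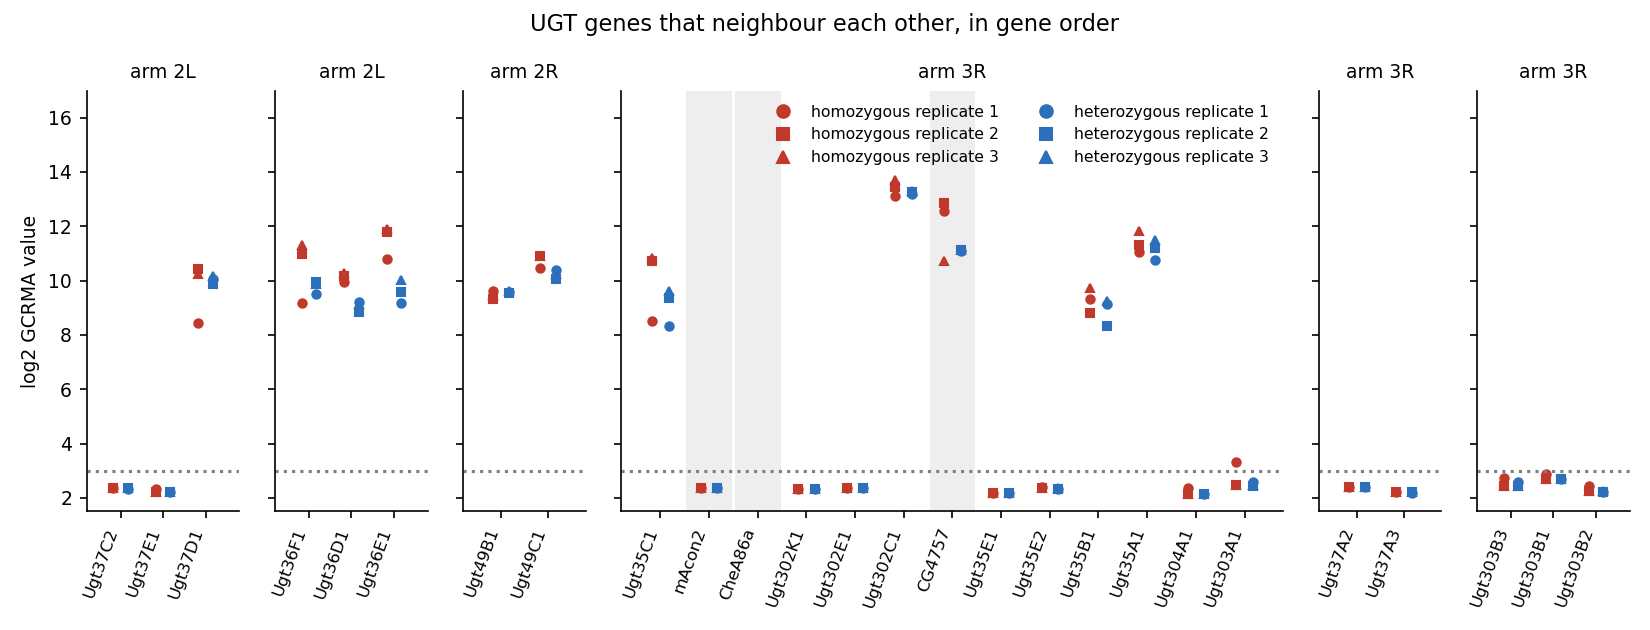
Log2 GCRMA values of the UGT genes in the 6 runs of neighbours, in gene order along each chromosome arm, with homozygous arrays (red) left of heterozygous arrays (blue) and grey bands for other genes inside a run. Genes well above the limit of 3 (dotted) stand next to genes under it in the 10-gene run on arm 3R, and all 3 genes of the Ugt36 run are well above it.

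None of the genes listed for UDP-sugar supply, transport and use was called. Over all genes 0.442% were called lower and 0.0751% higher, so 0 calls in lists this short say little. This holds as well for the lists of foreign-chemical response, sulfate conjugation and P450 partners. Of 9 measured genes of UDP-sugar supply (of 10 listed), 0 were called lower and 0 higher, with a median difference of 0.013. Galk, the galactokinase that feeds galactose towards UDP-sugars, had the smallest p. It was read at 10.11, 10.64 and 10.74 in homozygotes against 9.79, 9.97 and 10.08 in heterozygotes. Its groups were separate by a small step, and the difference of 0.55 was not called (limma adjusted p = 0.611). UGP, the enzyme that makes UDP-glucose, was chosen after its values were seen. It stood at 7.78, 3.50 and 4.13 in homozygotes against 5.91, 2.92 and 4.36 in heterozygotes. Replicate 1 was the highest array of both genotypes, and the interval from -2.80 to 4.28 was the widest of the list.

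Of 4 measured nucleotide-sugar transporters of 5 listed, none was called, and meigo, with the smallest p, differed by -0.28 (limma adjusted p = 0.611). Of 6 other genes of UDP-glucose use and glycogen synthesis, all measured, none was called. They include AGBE, the glycogen branching enzyme, which does not itself use UDP-glucose. The smallest p was for wol, which charges dolichol phosphate with glucose, with 10.51, 11.06 and 10.85 in homozygotes against 10.39, 10.27 and 10.23 in heterozygotes (difference 0.51).

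Genes listed as factors of the response to foreign chemicals gave 0 calls among 8, with a median difference of -0.18. The 8 include Met and gce, known as receptors of juvenile hormone, and gce lay at background on all arrays. The gene with the smallest p was ss (spineless), the fly relative of the mammalian aryl hydrocarbon receptor, which in flies also directs the identity of antennae and other appendages. It was read at 8.278, 7.348 and 7.644 in homozygotes against 10.004, 9.506 and 9.667 in heterozygotes. The groups lay far apart, and the difference was -1.97 (95% interval -2.69 to -1.25, limma adjusted p = 0.106).

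Sulfotransferases, which conjugate small molecules with sulfate, had 2 of 4 genes at background and 0 calls. St3 was read at 11.91, 12.10 and 12.25 in homozygotes against 11.03, 10.55 and 10.70 in heterozygotes. Its groups were separate by almost 1 unit, and the difference of 1.33 (95% interval 0.91 to 1.75) had a limma adjusted p of 0.0682. Cytochrome b5, an electron donor to P450 enzymes and the product of Cyt-b5, was read at 13.89, 13.62 and 13.87 in homozygotes against 13.42, 13.45 and 13.46 in heterozygotes. Its difference of 0.35 was not called (limma adjusted p = 0.605). Neither was that of Cyt-b5-r, the other measured gene of the 3 listed as P450 partners. Cyt-b5-r is named for its relation to cytochrome b5, and its part in P450 electron supply was not examined. Cpr, also in that list, had no value.

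**Figure D5:**
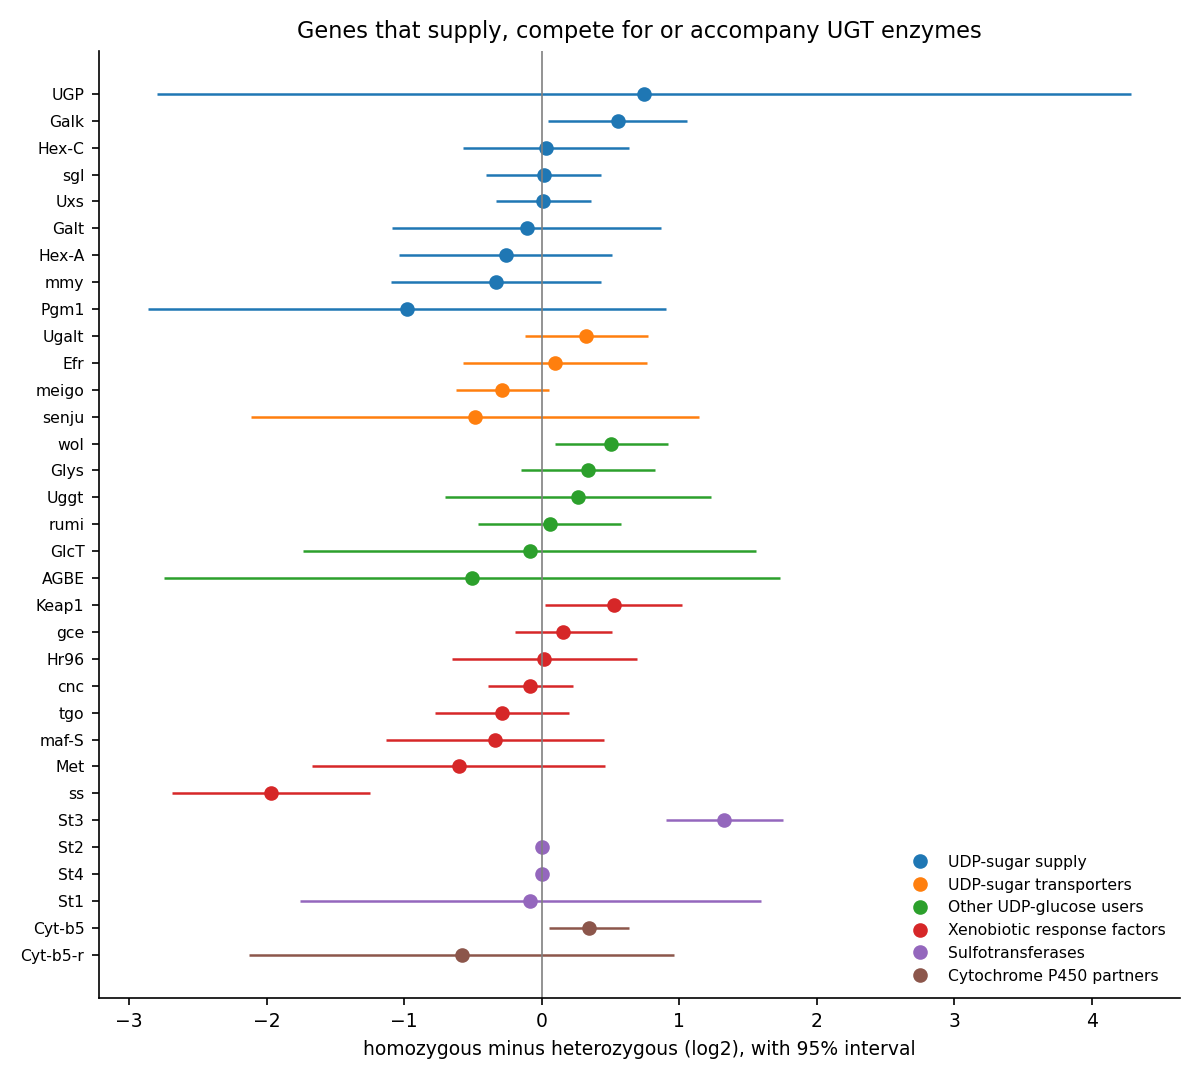
Difference between genotypes (homozygous minus heterozygous, log2) with unadjusted 95% intervals for 33 genes. They were listed for UDP-sugar supply, transport and use, the response to foreign chemicals, sulfate conjugation and partners of P450 enzymes. St3 at 1.33 and ss at -1.97 lie farthest from 0, and UGP has the widest interval.

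Set beside the other large enzyme families of detoxification, the UGT genes shared the absence of calls with glutathione S-transferases. Of 34 glutathione S-transferase genes, 0 were called lower and 0 higher, and of 81 cytochrome P450 genes, 4 were called lower and 0 higher. Over all genes 0.442% were called lower and 0.0751% higher, so 0 calls in a family of this size say little. Groups did not overlap in 0 lower and 14 higher (41.2%) of the 34, and in 21 lower (25.9%) and 9 higher (11.1%) of the 81. Of the 35 UGT genes, they did not overlap in 1 lower (2.86%) and 10 higher (28.6%). Only 4 of these higher UGT genes were among the 15 above the limit on all arrays. Over all genes these shares were 5.83% lower and 16.3% higher. With the replicate block, 0 of the 81 P450 genes were called (smallest limma adjusted p = 0.131). Among genes above the limit on all arrays, the median difference was 0.30 over the 15 UGT genes, 0.41 over 27 glutathione S-transferase genes and -0.10 over 61 P450 genes. The difference between these families was not tested.

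Markers of some cell types moved with genotype on the same arrays. Of 9 measured markers of support cells of chemosensory bristles, 6 were called lower and 0 higher, against 0.442% and 0.0751% of all genes. The summed linear signal of the 9 was 13280 to 16380 in homozygotes against 98440 to 137500 in heterozygotes. Obp28a and lush went the other way, with means of 7.82 and 6.25 in homozygotes against 7.04 and 5.11 in heterozygotes. Groups did not overlap for Obp28a and overlapped for lush. With the replicate block, 0 of these 9 were called (smallest limma adjusted p = 0.267). Blood cell markers, 6 of 7 of them above the limit on at least 1 array, summed to 4879 to 6309 in homozygotes against 2774 to 3496 in heterozygotes, with 0 called and He at background. Fat body markers overlapped between genotypes, at 25470 to 30860 in homozygotes against 24870 to 31380 in heterozygotes, with Fbp1 and Lsp2 at background and 4 of 6 above it on at least 1 array. Malpighian tubule markers, 6 of 6 of them above the limit on at least 1 array, summed to 310 to 376 in homozygotes against 340 to 406 in heterozygotes. Midgut markers, 7 of 7, ranged from 1845 to 16460 in homozygotes against 12240 to 21790 in heterozygotes. Markers of neurons in general, 4 of 5 of them above the limit on at least 1 array, summed to 1387 to 1948 in homozygotes against 3078 to 3384 in heterozygotes, with 0 called and brp at background. In the lists for glia, muscle, eye and cuticle the sums overlapped between genotypes and 0 genes were called. The part of these cell types in the UGT values was not tested.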

How the data were processed

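Total RNA from pooled proboscises was amplified in 2 rounds from about 50 ng into biotinylated cRNA for a single-colour array, per the labels' protocols. The authors deposited log2 values made with GCRMA, per the submitters' processing notes (version not given in the sources used here), which correct background from probe sequence and normalize between arrays. Values ran from 1.57 to 16.02, which gave the scale. GCRMA pulls dim probe sets into a narrow band: 48.2% had all 6 values under 3. Scanner files were not used here, and the number of arrays limits the precision.

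After removal of 183 controls, limma 3.58.1 (R 4.3.3) was run on 18769 probe sets with lmFit and trended eBayes. The p-values were adjusted by Benjamini-Hochberg over all of them. On simulated arrays without structure by replicate number, the fit was checked only for the size of planted differences. Of the 18769 probe sets, 13647 had 1 gene, 402 several and 4720 none. The RefSeq table (Release 6 plus ISO1 MT) matched 13544 and served for names and gene order only. The brightest probe set stood for a gene. The rule for genes given with values in every sample took called UGT genes, the 10 UGT genes above background with the smallest p, the 5 brightest, and the gene with the smallest p of each pathway list. The other UGT genes above background were added to account for each member, and further genes are said to be chosen otherwise where they are named. Members and lists were chosen with earlier results of these data known.

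Same-numbered arrays deviated together (correlations 0.372, 0.288 and 0.142 over probe sets), which served as the basis for a pairing by number that the labels do not state. Homozygous replicate 3 correlated more with heterozygous replicate 2 (0.275), and homozygous replicate 2 correlated at 0.129 with heterozygous replicate 3. The correlations thus set number 1 apart but did not tell numbers 2 and 3 from each other. The fit reported has no replicate block, and the fit with the number as a block is an alternative, given where it changed a call. Number 1 deviated against the others in both genotypes, so the 3 same-numbered correlations are not independent. Whether replicates came from separate rearings is not given, so p-values measure the spread between these samples. Alternatives covered the trend, dim probe sets, normalization, array weights, the replicate block and leaving out arrays.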

Additional observations from a re-analysis of the deposited data

How the results depend on the processing

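With all probe sets kept, no UGT gene was called with the replicate block (0 lower and 0 higher, smallest UGT limma adjusted p 0.271). That fit also left 0 lower and 0 higher over all genes (smallest limma adjusted p 0.131). The calls reported for all genes, P450 genes and markers of taste neurons and support cells were thus lost under it. The UGT count of 0 lower and 0 higher also held without the trend, after removal of the dimmer 50% and without both arrays numbered 1. It held as well with quantile normalization, with median centring and with probe sets averaged per gene. It held in all 6 fits that left out 1 array (0 to 0 lower, 0 to 0 higher). The replicate block also leaves fewer degrees of freedom to estimate the spread. A random block by replicate number gave 1 higher UGT gene, Ugt36D1 (limma adjusted p = 0.0463). Over all probe sets that random block called 117 lower and 50 higher, against 59 and 11 in the fit reported. With the dimmer 50% left out together with the replicate block, chosen after seeing the data, 1 was higher, Ugt36E1 (adjusted p = 0.0419). Over its 9384 probe sets that fit called 74 lower and 18 higher (smallest limma adjusted p = 0.00935). The loss of every call under the block thus held only with the dim probe sets kept. With array weights 1 UGT gene was lower and 17 were higher, but that fit called 1689 probe sets lower and 6520 higher and its weights did not converge. Genes above background numbered 17 in at least 1 genotype, 19 with a limit of 2.5 and 15 with a limit of 4. The sign turned for Ugt37D1 and Ugt301D1, at 0.41 and 0.51 with array weights and at 0.30 and 0.70 without both arrays numbered 1. Over the 6 fits that left out 1 array, Ugt37D1 ran from -0.69 to 0.29 and Ugt301D1 from -0.59 to 0.79, positive without homozygous replicate 1. The other 13 genes kept their sign under all 16 alternatives. The cause was not tested. Signal over background is known only from the low band.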
